A study of Homo sapiens with 6 samples.

Results

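The genes described here are REST and 32 genes known as targets of the repressor it encodes, most of them active in neurons. The list of 33 names was set for this account, and a probe set was taken for a gene where the array annotation gave it that 1 symbol and no other. All 33 genes were found, on 62 probe sets, out of 19775 genes named on the array. The cells were MDA-MB-231, an established line of human breast cancer that lacks the estrogen receptor. One group of 3 arrays came from cells given a control siRNA and the other group of 3 from cells given an siRNA against LSD1, the histone demethylase encoded by KDM1A. Both groups were transfected in 2 rounds and RNA was taken at 6 days. The labels name biological replicates of 1 cell line and do not say how the cultures were set up, so p-values measure the spread between these samples.

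REST is a zinc finger protein that binds a DNA element called RE1 near neuronal genes and keeps them silent outside the nervous system. It does so by bringing in corepressors: SIN3 proteins with histone deacetylases at one end, and CoREST with LSD1 and histone deacetylases at the other. LSD1 strips methyl groups off histone H3 at lysine 4, where they mark active genes, and the comparison asks how these target genes stand when LSD1 is depleted.

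Promoter sequences show which members carry the RE1 letters close to a start site. RefSeq promoter windows of GRCh38.p14, 250 bases before to 50 after a start, were matched to 22 of the 33 members, in 31 windows. The others were SCN3A, STMN2, SNAP25, CHGB, NEFL, NEFM, NEFH, CPLX1, SCG2, SEZ6 and CALB1. The RE1 consensus, searched as 16 letters on both strands, was in the windows of SYN1 and GRIA2. That is 2 of 31 member windows (6.45%), against 24 of 35116 windows of all genes (0.0683%). With 1 mismatch allowed, VGF joined them, and 1.16% of all windows held a match. A match is a description of letters, not a measured binding site. The bases upstream of the start are printed for SYN1 and GRIA2, which match all 16 letters searched, with the match in capitals. GRIA2 holds it on the opposite strand. In VGF, 30 bases around the match with 1 mismatch are printed, also on the opposite strand.
SYN1, chrX:47619858-47620107, minus strand: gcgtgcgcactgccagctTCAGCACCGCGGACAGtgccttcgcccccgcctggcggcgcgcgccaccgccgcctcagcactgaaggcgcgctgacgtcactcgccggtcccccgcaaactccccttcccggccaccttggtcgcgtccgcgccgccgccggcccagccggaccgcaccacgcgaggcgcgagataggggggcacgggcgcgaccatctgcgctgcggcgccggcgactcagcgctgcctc
GRIA2, chr4:157220369-157220618, plus strand: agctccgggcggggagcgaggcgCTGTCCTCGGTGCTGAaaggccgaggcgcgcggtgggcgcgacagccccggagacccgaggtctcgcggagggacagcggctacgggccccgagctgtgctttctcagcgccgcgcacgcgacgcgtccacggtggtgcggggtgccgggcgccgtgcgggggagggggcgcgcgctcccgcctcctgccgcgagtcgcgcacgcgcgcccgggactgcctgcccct
VGF, chr7:101165553-101165582, minus strand: gcgggcgCTGTCCAGCGTGCTGAagccgga

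For comparison, the same stretch is printed for SYT1 and UNC13A, which rose, and STMN3, which fell. None of them holds the 16-letter match. The capitals in SYT1 mark GGACAG, and those in UNC13A mark GGACAGC, letters of the right part of RE1, on the opposite strand in both. STMN3 has no capitals because neither these letters nor CAGCACC, from the left part, occur upstream of its start. The UNC13A window also holds the left-part letters without mismatch, on the same strand as its right-part letters. They begin 7 bases past its start, beyond the printed stretch, and the right-part letters begin 9 bases before it. GGACAG was in 20.5% of all windows, GGACAGC, which contains it, in 6.03%, and CAGCACC in 7.75%.
SYT1, chr12:78864524-78864773, plus strand: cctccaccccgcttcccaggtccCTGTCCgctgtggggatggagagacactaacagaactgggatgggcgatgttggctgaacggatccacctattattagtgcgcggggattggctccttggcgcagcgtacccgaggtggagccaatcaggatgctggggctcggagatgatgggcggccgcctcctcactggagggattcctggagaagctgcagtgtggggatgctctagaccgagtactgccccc
UNC13A, chr19:17688355-17688604, minus strand: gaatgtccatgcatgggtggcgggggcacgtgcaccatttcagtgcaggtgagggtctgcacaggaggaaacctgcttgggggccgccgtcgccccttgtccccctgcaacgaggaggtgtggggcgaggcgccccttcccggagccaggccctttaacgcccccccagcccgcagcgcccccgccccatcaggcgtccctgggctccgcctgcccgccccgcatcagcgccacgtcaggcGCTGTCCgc
STMN3, chr20:63652767-63653016, minus strand: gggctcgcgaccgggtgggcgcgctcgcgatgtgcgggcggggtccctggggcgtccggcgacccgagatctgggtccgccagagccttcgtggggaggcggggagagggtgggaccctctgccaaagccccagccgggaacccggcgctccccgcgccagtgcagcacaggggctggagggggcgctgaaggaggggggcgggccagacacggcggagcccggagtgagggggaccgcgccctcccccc

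The arrays give linear MAS5 signals, each scaled to a trimmed mean of 500.1, and the number of arrays limits the precision. KDM1A, the siRNA target, had signals of 2540, 2493 and 2295 with control siRNA and 291, 184 and 228 with LSD1 siRNA, a difference of -3.32 in log2 (SE 0.13, limma adjusted p = 1.49e-08). The ratio of the 3' to the 5' control set of ACTB, a sign of RNA quality, was 1.74 on control array 1 and from 1.33 to 1.43 on the rest. Genes with a mean signal of 30.5 or less, the 40th percentile of all probe sets, are called dim and were not tested. Changes are differences of log2(signal + 15), which understate those of low genes. Among cell line markers, the vimentin gene VIM was at 32798 with control siRNA, CD44 at 13093 and EGFR at 4732. The receptor genes ESR1, PGR and ERBB2 were above the filter with control siRNA, at 59.1, 60.7 and 581, as was CDH1 at 163. The leukocyte gene PTPRC was dim. EGFR was lower with LSD1 siRNA, at -0.25 in log2 (limma adjusted p = 0.0194), and the other tested cell line markers did not pass.

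Of the 33 members, 3 rose, 3 fell, 10 did not pass the test and 17 were dim. The 3 that rose were SYT1, UNC13A and L1CAM, and the 3 that fell were STMN3, BDNF and SCG2. Over all 13847 genes tested, 41.1% passed the same limma test, 19.8% higher and 21.3% lower. The members' 6 of 16, or 37.5%, was near that background, as were 18.75% higher and 18.75% lower. That background depends on signal level, and many tested members were low. With the filter at the 60th percentile, 8 members were tested, 2 rose and 2 fell, where 53.8% of all genes passed. Since the filter uses the mean of all arrays, a member can be tested through the group where it is higher, as UNC13A, INA and SYN1 were. The median log2 change of the 16 tested members was 0.07 and that of all genes tested was -0.02. Leaving out REST, the median of the other 15 was -0.03. The direction was split evenly, with 8 of the 16 above 0 and 8 below. With each gene taken as the mean of all its probe sets, 15 members were tested: SYT1 rose and 4 fell (STMN3, BDNF, SCG2 and SYN1), where 33.4% of all genes passed, 16.3% higher and 17.1% lower. In bulk RNA, fewer cells with a transcript and fewer copies per cell cannot be told apart.

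**Figure D1:**
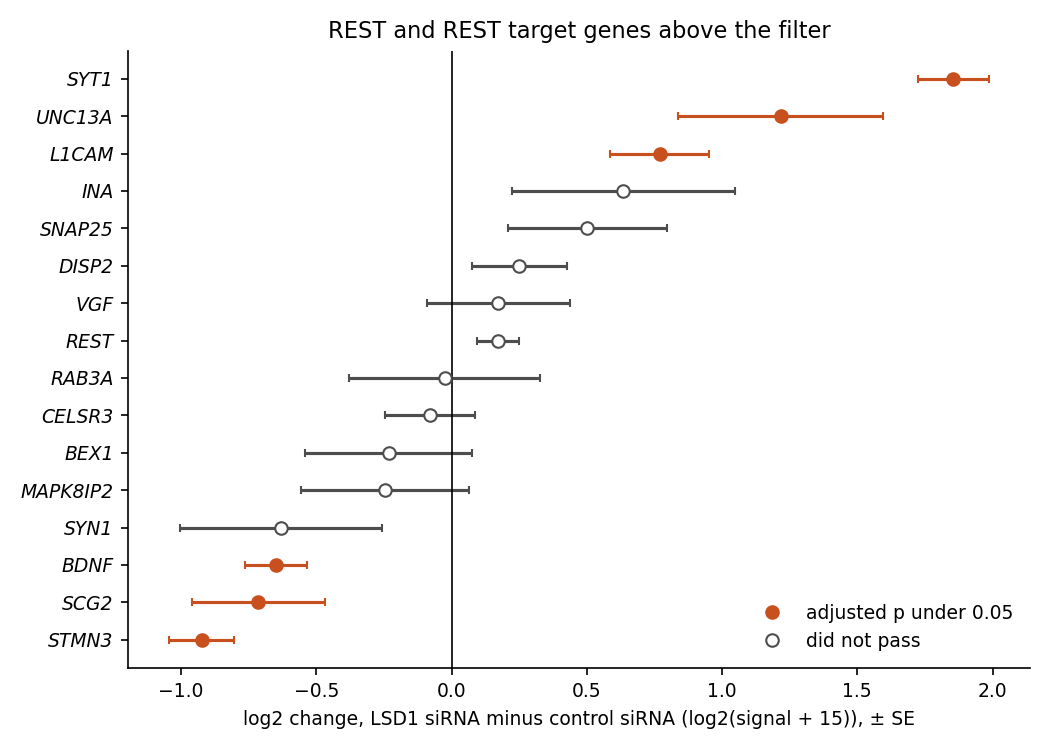
Log2 change (LSD1 siRNA minus control siRNA, on the log2(signal + 15) scale) of the 16 members above the filter, with standard errors over 3 arrays a group. Filled points passed limma at an adjusted p of 0.05 over all genes. The values run from -0.92 for STMN3 to 1.85 for SYT1, with filled points at both ends.

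REST itself did not pass the test. Its brightest probe set gave 972, 903 and 1032 with control siRNA and 1053, 1152 and 1070 with LSD1 siRNA. All 3 LSD1 siRNA arrays were above all 3 control arrays, as in 4 of the 16 tested members and 24.3% of all genes tested. For 3 members and 26.2% of genes they were all below. The mean was 969 ± 64.2 with control and 1092 ± 52.7 with LSD1 siRNA (SD, n = 3), a difference of 0.17 in log2 (SE 0.08, limma adjusted p = 0.105). The other REST probe sets were near the filter and had log2 changes of -0.37 and -0.01, neither past the test.

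Of 8 genes of synaptic vesicles and their release, 2 rose, none fell, 3 did not pass and 3 were dim. With 5 tested, beside 19.8% of all genes higher and 21.3% lower, nothing particular to vesicle genes is read from the count. SYT1 encodes synaptotagmin 1, the calcium sensor that triggers vesicle fusion. Its signal was 95.4, 108 and 98.4 with control siRNA and 390, 405 and 413 with LSD1 siRNA. The groups were far apart, and the spread within each was small. Its mean rose from 101 ± 6.59 to 403 ± 12.1 (SD, n = 3), which is 1.85 in log2 (SE 0.13, limma adjusted p = 8.77e-07). Its second probe set gave 8.67, 20.3 and 25.3 with control siRNA and 76.7, 91.0 and 126 with LSD1 siRNA. That set rose by 1.78 (limma adjusted p = 0.000945 over all probe sets), so both sets of SYT1 passed in the same direction.

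UNC13A encodes Munc13-1, which primes vesicles for fusion. Its signal was 7.44, 32.2 and 13.3 with control siRNA and 48.8, 50.9 and 74.5 with LSD1 siRNA. The groups did not overlap, but 2 of the 3 control values lie below the filter, so the size of the change is loosely set. Its log2 difference was 1.22 (SE 0.38, limma adjusted p = 0.0229). It gave 0.98 without control replicate 1 (limma adjusted p = 0.0615) and 1.28 without LSD1 siRNA replicate 2 (limma adjusted p = 0.0503). Without LSD1 siRNA replicate 3 its mean was below the filter. It depends on the constant, at 1.87 with 1 and 0.61 with 60, and passed with both. A second probe set was dim in both groups, with signals from 2.68 to 36.8, and its arrays overlapped.

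The other vesicle genes gave no call. SNAP25, a membrane fusion protein gene, had 32.4, 80.2 and 76.6 with control siRNA and 101, 78.3 and 92.8 with LSD1 siRNA. Its arrays overlapped, and the log2 change of 0.50 had a standard error of 0.29. SYN1, the synapsin gene whose promoter holds RE1, had 56.6, 36.7 and 57.1 against 11.1, 41.7 and 33.6, with a log2 change of -0.63 and a standard error of 0.37 (limma adjusted p = 0.207). Its second probe set was dim and had 50.8, 17.5 and 38.7 against 17.1, 1.51 and 8.05, with no overlap. Averaged over both sets, SYN1 was at -0.85 and passed (limma adjusted p = 0.0331). RAB3A, a vesicle GTPase gene, was at -0.03. SYP, SYT4 and CPLX1, which encode a vesicle membrane protein, a synaptotagmin and a fusion regulator, were dim.

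All 4 channel and receptor genes were dim by the probe set that stands for the gene, so none was tested. They were the sodium channel genes SCN2A and SCN3A, the AMPA receptor gene GRIA2 and the GABA-B receptor gene GABBR2. GRIA2, the other member with the 16-letter RE1 match, had 3.45, 12.7 and 4.06 with control siRNA and 10.8, 28.8 and 20.3 with LSD1 siRNA. Its arrays overlapped. GABBR2 had 3 other probe sets. One above the filter, with the x suffix that marks possible cross-hybridisation, had a log2 change of -0.06. Another x suffix set, dim on its mean, had 9.78, 8.60 and 21.3 with control siRNA and 41.3, 42.4 and 30.8 with LSD1 siRNA, higher with no overlap. The last, also dim, had 11.8, 9.98 and 24.6 against 7.74, 7.06 and 3.09, lower with no overlap.

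Of 9 genes of the neuronal cytoskeleton, axon growth and adhesion, 1 rose, 1 fell, 2 did not pass and 5 were dim. These 2 of 4 tested stand beside 41.1% of all genes called. L1CAM encodes an adhesion protein of growing axons that some carcinoma cells also make. Its signal was 104, 96.0 and 97.5 with control siRNA and 202, 202 and 141 with LSD1 siRNA. Every LSD1 siRNA array was above every control array, and LSD1 siRNA array 3 was the lowest of its group. Its log2 difference was 0.77 (SE 0.18, limma adjusted p = 0.00535). Its other probe set was dim, with signals from 4.91 to 19.0 and overlapping arrays. Averaged over both sets L1CAM was at 0.33 and did not pass (limma adjusted p = 0.244).

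STMN3 encodes a stathmin that destabilises microtubules. Its signal was 668, 565 and 593 with control siRNA and 365, 278 and 300.0 with LSD1 siRNA. The groups were well separated, and the mean fell to 51.7% of control, from 608 ± 53.3 to 315 ± 45.3 (SD, n = 3). Its log2 difference was -0.92 (SE 0.12, limma adjusted p = 7.62e-05). Its dim second probe set was also lower on all LSD1 siRNA arrays, with 24.5, 32.6 and 15.5 against 1.46, 4.82 and 3.05. INA, an intermediate filament gene, was at 0.63 with a standard error of 0.41, and CELSR3, a cadherin gene of axon guidance, at -0.08. Neither passed, and their arrays overlapped. The neurofilament genes NEFL, NEFM and NEFH, the stathmin gene STMN2 and the growth cone gene GAP43 were dim.

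Of 6 genes of secretory granules and secreted factors, none rose, 2 fell, 1 did not pass and 3 were dim. Only 3 were tested, and over all genes 21.3% were lower. BDNF encodes a neurotrophin, and both of its probe sets were well above the filter. The first had 1183, 1057 and 1298 with control siRNA and 774, 624 and 850.0 with LSD1 siRNA. The second had 1093, 1078 and 1094 with control siRNA and 552, 597 and 521 with LSD1 siRNA. Every LSD1 siRNA array was below every control array in both sets. For the first, the log2 difference was -0.65 (SE 0.11, limma adjusted p = 0.000701 over all genes). It was -0.95 with a standard error of 0.08 for the second (limma adjusted p = 4.40e-06 over all probe sets).

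SCG2 encodes secretogranin II, a granule protein. Its signal was 129, 110 and 79.5 with control siRNA and 68.1, 45.5 and 61.3 with LSD1 siRNA. The groups did not overlap, though control array 3 and LSD1 siRNA array 1 were close. Its log2 difference was -0.71 (SE 0.25, limma adjusted p = 0.0368). It missed the threshold in 4 of 6 fits that left out an array: without control replicate 1 (limma adjusted p = 0.130), control replicate 2 (0.0965), LSD1 siRNA replicate 2 (0.119) and LSD1 siRNA replicate 3 (0.0654). With no filter it was 0.0795. VGF, a secreted neuropeptide precursor gene with the RE1 match of 1 mismatch, was at 0.17 with overlapping arrays. The VGF probe set carries the x suffix. The granule genes CHGA, CHGB and SCG3 were dim.

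**Figure D2:**
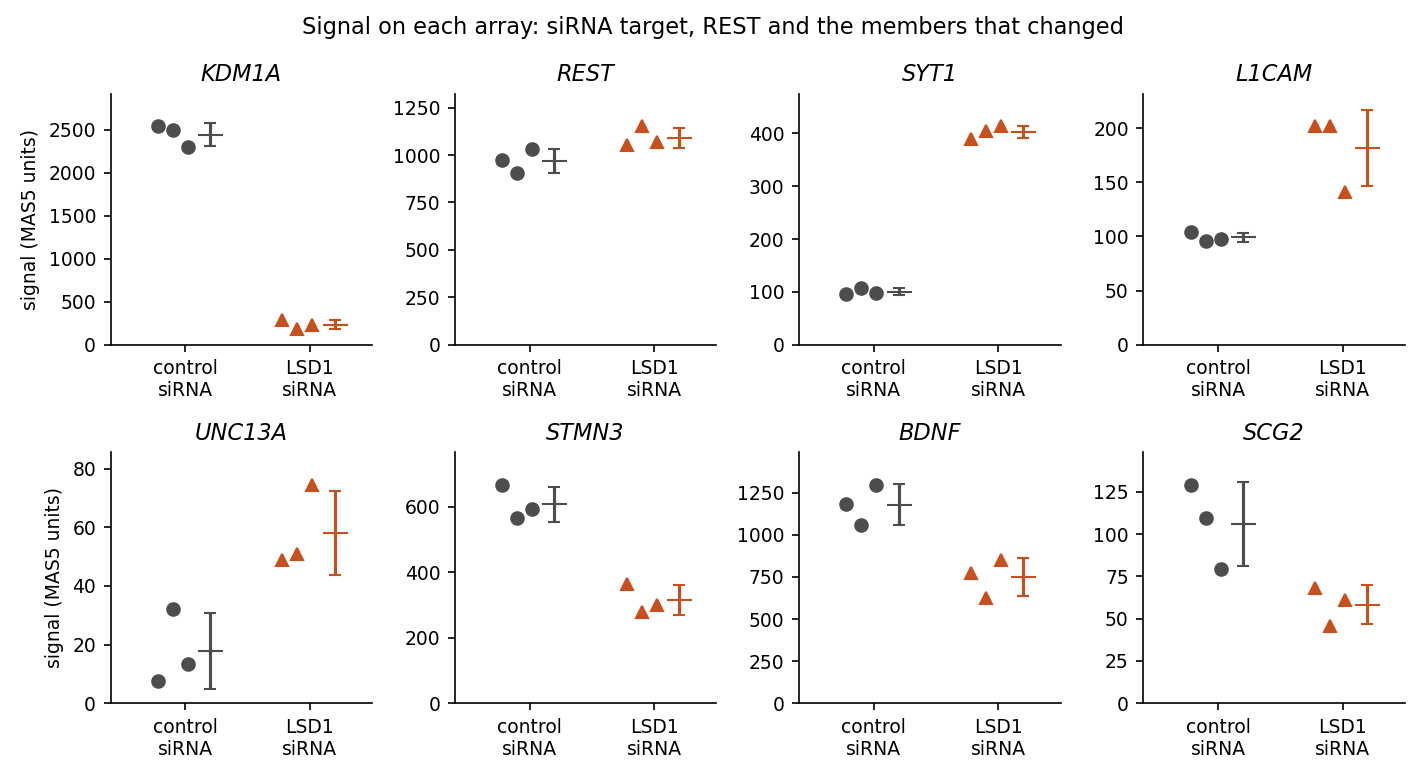
Signal on each array (MAS5 units, linear axes from 0) for KDM1A, REST and the 6 members that passed the test, with control siRNA as circles and LSD1 siRNA as triangles. Bars beside the points give the mean and SD of 3 arrays. SYT1, L1CAM and UNC13A sit higher with LSD1 siRNA, STMN3, BDNF and SCG2 lower, and no panel has overlapping groups.

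The remaining 5 members gave no call. DISP2, a gene of the dispatched family, had 144, 189 and 121 with control siRNA and 176, 187 and 178 with LSD1 siRNA, a log2 change of 0.25 with overlapping arrays. MAPK8IP2, which encodes a scaffold protein of JNK signalling, was at -0.25 and BEX1, a brain-expressed X-linked gene, at -0.23, each with a standard error of 0.31. SEZ6, a gene first tied to seizures, and CALB1, which encodes the calcium-binding protein calbindin, were dim.

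The 17 dim members had array signals from 0.897 to 61.7 and means over all arrays from 2.73 to 30.5, the highest being SYT4 just below the filter. Just above it were INA and UNC13A, with means of 35.9 and 37.9. Of the members with a probe set, 51.5% were dim, against 30.0% of all genes named. For 15 of these 17 the arrays of the groups overlapped. CHGB, which encodes chromogranin B, had 1.85, 2.37 and 4.86 with control siRNA and 19.7, 28.6 and 23.1 with LSD1 siRNA. Its groups were clearly apart, although all 6 values lie below the filter. SEZ6 had 3.87, 5.47 and 2.78 against 36.1, 5.63 and 17.2, with 1 LSD1 siRNA array almost at the highest control array. These 2 of 17 compare with 11.2% of all genes below the filter whose arrays did not overlap, 5.33% higher and 5.85% lower. In a fit with no filter, where all 33 members were tested, CHGB passed at 1.10 (limma adjusted p = 0.00993) and the other 16 dim members did not. In that fit 2.29% of all genes below the filter passed.

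**Figure D3:**
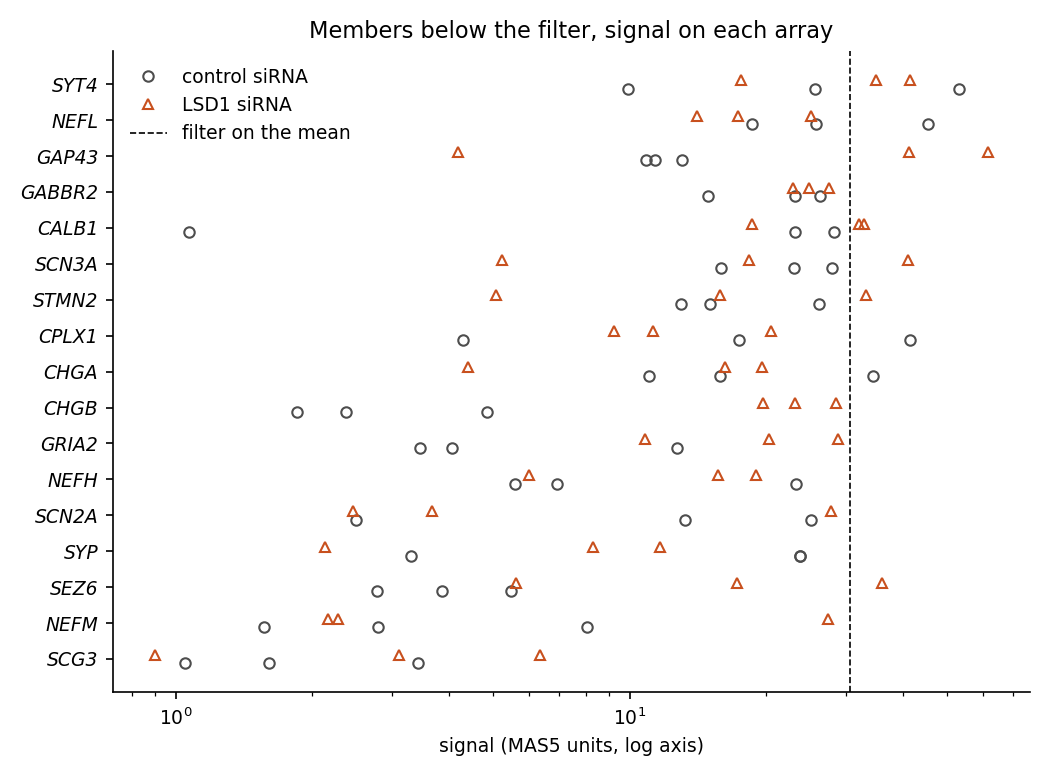
Signal on each array (MAS5 units, log axis) for the 17 members below the filter, control siRNA as circles and LSD1 siRNA as triangles, with the filter of 30.5 as a dashed line. For CHGB the triangles stand clear of the circles; for 15 of the 17 genes the groups overlap.

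By probe set, 22 of the 62 were above the filter, and 4 rose and 4 fell, where 34.5% of all probe sets tested passed, 17.1% higher and 17.4% lower. The 4 higher sets were both of SYT1 and 1 each of L1CAM and UNC13A. The 4 lower sets were both of BDNF and 1 each of STMN3 and SCG2. Of the 21 members with several probe sets, only SYT1, BDNF, REST and CELSR3 had more than 1 set above the filter. Both sets passed in SYT1 and in BDNF, and no set passed in REST or CELSR3. The groups stood clear of each other in 7 of the 16 tested members, against 50.4% of all genes tested.

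A second list holds genes of the complexes that REST recruits and of factors that act on REST. Of 27 listed, 25 had a probe set and 23 were tested: 1 rose, 10 fell and 12 did not pass, where 21.3% of all genes tested fell. The share of all genes called rises with signal level, and most of this list was bright. With the filter at the 60th percentile, 1 rose and 10 fell, where 5679 of 10556 genes passed, 2695 of them higher. EHMT2, a histone H3 lysine 9 methyltransferase gene, had 694, 644 and 594 with control siRNA and 400.0, 309 and 359 with LSD1 siRNA, a log2 change of -0.83 (limma adjusted p = 0.000108). CTDSPL, CTDSP2 and CTDSP1 encode small phosphatases known as partners of REST, and changed by -0.82, -0.43 and -0.60. HDAC1, a histone deacetylase gene, was at 7877 ± 97.3 with control and 6386 ± 262 with LSD1 siRNA (SD, n = 3), and changed by -0.30 in log2. The other 5 that fell were HDAC2, SIN3A, SAP30, SMARCA4 and CTBP1, at -0.22 to -0.42. Averaged over all probe sets, 6 of 24 tested fell and none rose, where 17.1% of all genes fell. HDAC2 (-0.03), SIN3A (-0.32), SAP30 (-0.13) and CTBP1 (-0.28) did not pass. CTDSPL passed there at -0.33.

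RCOR1, which encodes CoREST, the partner that holds LSD1, had 3531, 3769 and 3861 with control siRNA and 3747, 3973 and 3598 with LSD1 siRNA. In log2 these differ by 0.02 (SE 0.06), and RCOR3 was at -0.02. PTBP2, a splicing regulator gene active in neurons, rose by 0.44 (limma adjusted p = 0.00617), and with the mean of its probe sets was at 0.30 (limma adjusted p = 0.0684). BTRC, which encodes the ubiquitin ligase subunit that targets REST, was at 0.24 (limma adjusted p = 0.0568). SRRM4, a splicing factor gene that in neurons yields a shortened REST, was dim, with 17.0, 8.66 and 6.39 against 38.8, 33.2 and 31.3. It passed in the fit with no filter at 0.96 (limma adjusted p = 0.0327). PTBP1 was represented by a dim probe set. Its bright set, which carries the x suffix, had 12901, 10348 and 10415 against 7723, 7942 and 7302 and a log2 change of -0.54 (limma adjusted p = 0.000346 over all probe sets).

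**Figure D4:**
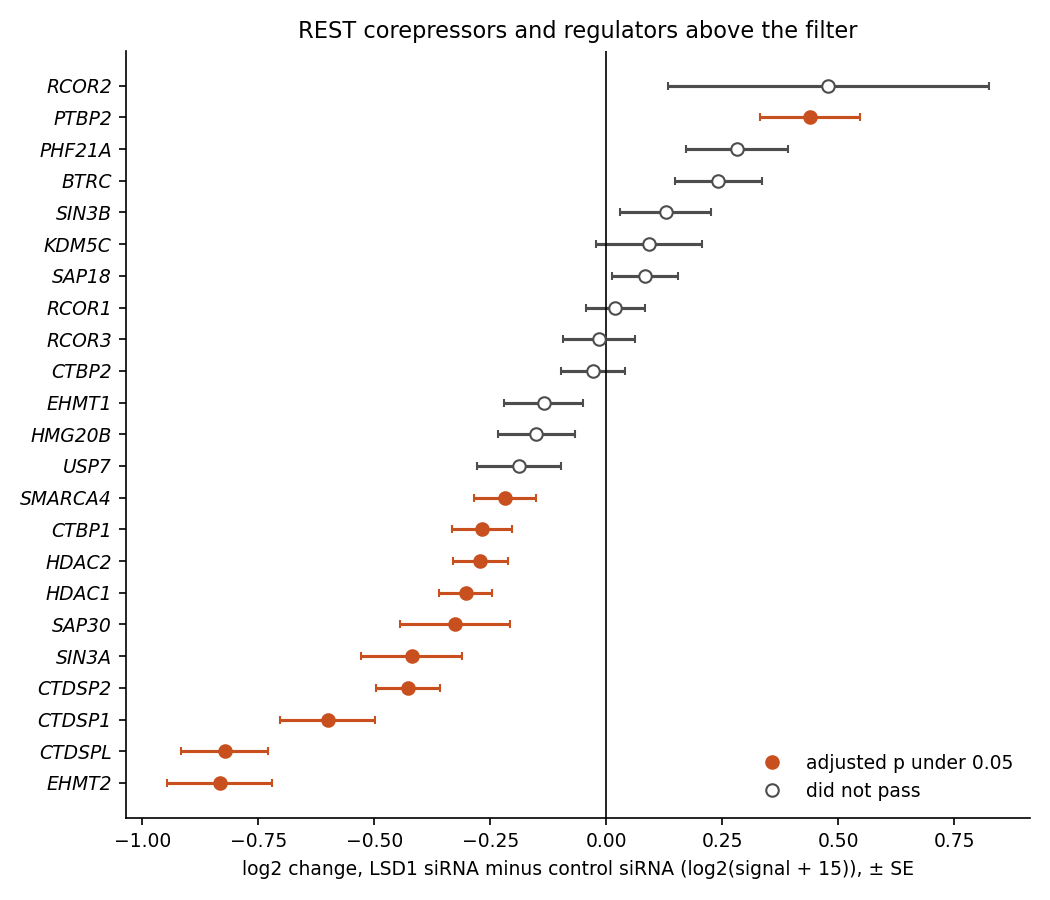
Log2 change (LSD1 siRNA minus control siRNA, on the log2(signal + 15) scale) of the 23 tested genes of REST corepressors and regulators, with standard errors over 3 arrays a group. Filled points passed limma at an adjusted p of 0.05 over all genes. The 10 filled points on the left end with EHMT2 at -0.83, and the 1 on the right is PTBP2 at 0.44.

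Neuronal and glial genes outside the REST list were mostly dim or not past the test. Of 24 listed, 21 had a probe set and 11 were tested: 2 rose, none fell and 9 did not pass, against 19.8% higher over all genes. MAP2, which encodes a dendrite microtubule protein, had 40.9, 53.7 and 52.7 with control siRNA and 305, 234 and 232 with LSD1 siRNA. It rose by 2.08 (SE 0.19, limma adjusted p = 6.24e-06). SYNGR3, which encodes the vesicle membrane protein synaptogyrin 3, had at most 60.3 on the control arrays and 205, 216 and 196 on the LSD1 siRNA arrays. It rose by 1.77 (limma adjusted p = 2.41e-05). TUBB3, a neuronal tubulin gene also seen in carcinoma lines, was bright in both groups at 13647 ± 1305 and 12395 ± 1145 (SD, n = 3). The TUBB3 probe set carries the x suffix, so other transcripts may add to its signal. Averaged over all probe sets, 3 of 8 tested rose, with VAMP2, a vesicle fusion protein gene, the added one at 0.51, where 16.3% of all genes rose. Other genes used as neuron markers were above the filter: with control siRNA ENO2 was at 1713, MAPT at 74.3, UCHL1 at 42.0 and NCAM1 at 36.5, and none of these passed the test. The neuron markers DCX, ELAVL3, ELAVL4 and RBFOX3, the neuroendocrine marker INSM1 and the glial markers GFAP, S100B and OLIG2 were dim. GFAP had 40.5, 41.9 and 34.9 with control siRNA and 9.69, 6.68 and 16.9 with LSD1 siRNA, with no overlap. It passed as lower in the fit with no filter, at -1.07 (limma adjusted p = 0.0191), where 2.29% of all genes below the filter passed. DCX, ELAVL3, ELAVL4 and RBFOX3 lay between 2.50 and 38.9 on all arrays, in both groups.

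Across all genes, 21 had the 16-letter RE1 match in a promoter window, and 11 of them were tested. PDE2A, a cyclic nucleotide phosphodiesterase gene, rose by 1.17 (limma adjusted p = 0.0288) and EFL1, a ribosome assembly GTPase gene, by 0.28 (limma adjusted p = 0.00839). None fell, so 2 of 11, or 18.2%, were called beside 41.1% of all genes. Most of the 11 were low, with control means from 29.9 (FAM163B) to 63.2 (UCN). Their standard errors ran from 0.31 to 0.51, where the median over all genes was 0.11. The share of all genes called depends on signal level, at 26.5% with no filter and 53.8% with the filter at the 60th percentile. Nothing particular to RE1 genes is read from the 18.2%. With 1 mismatch allowed, 193 genes were tested, 34 rose and 46 fell, which is 41.5%. SYN1 is the tested member among the 11, and VGF joins at 1 mismatch. These promoter groups were formed after the data had been seen.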

How the data were processed

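Values are linear signal intensities for 54675 probe sets on 6 arrays, deposited by the authors. MAS5, with GCOS and Expression Console 1.1 of Affymetrix, is named in the submitters' processing notes for making them, from 2.5 ug of total RNA an array per the labels' protocols. Scaling to a common mean removes differences in total RNA per cell, and no detection calls were used here.

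Gene names came from the platform annotation, checked by gene identifier against a RefSeq table (GRCh38.p14). Of the probe sets, 41097 have 1 symbol, 1801 have several and 11777 are not listed. A gene was represented by its set with the highest mean signal, x suffix sets only where it had no other. Signals were taken as log2(signal + 15), 15 being their 25th percentile, and genes above the 40th percentile of the mean were tested with limma 3.58.1 in R 4.3.3 (lmFit, eBayes with an intensity trend, two-sided, Benjamini-Hochberg over all 13847 genes or 27107 probe sets). The test was checked on simulated data, with 50 genes changed at each of 4 sizes, fewer than changed in the data. It recovered 36% of 1.25-fold, 70% of 1.5-fold, 90% of 2-fold and 96% of 3-fold changes, with 8 false calls. A gene that did not pass may thus have a small change. Members with their values are named whatever their result, up to 5 genes each way from each other list, and the cell line markers. ENO2, MAPT, UCHL1, NCAM1, VAMP2, CHGB, SRRM4, PTBP1, RCOR1, RCOR3, BTRC, TUBB3, the dim markers and the RE1 genes were named after values were seen. The members and lists were chosen with earlier results of these data known. Promoters were searched in Python 3.11.15 and figures drawn with matplotlib 3.10.9. Alternatives covered the constant, filter, normalization, centring, variance model, replicate block, probe sets and each array left out.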

Additional observations from a re-analysis of the deposited data

How the results depend on the processing

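SYT1, STMN3 and BDNF passed in the same direction under all 17 alternatives, and REST under none. With a mean over all probe sets, 1 member rose (SYT1) and 4 fell. L1CAM and PTBP2 no longer passed, and UNC13A was below the filter. None of the corepressors and regulators rose there and 6 fell. With the filter at the 60th percentile, 8 members were tested, 2 rose and 2 fell, where 53.8% of all genes passed. By probe set, 2 rose and 3 fell there. Among the corepressors and regulators 2 rose with no filter, with median centring and with no intensity trend. With no filter they were the splicing genes PTBP2 and SRRM4. Among the other neuronal genes 1 fell with no filter (GFAP), and 0 to 1 fell when an array was left out, the 1 without control replicate 3. Leaving out each array gave 2 to 3 members higher, 2 to 3 lower and 4863 to 5750 genes changed over all genes. REST lay between 0.12 and 0.22 there, and at -0.07 averaged over its probe sets. The numbers do not pair the samples: correlations of same-numbered deviations were 0.02, -0.004 and 0.03, and with a replicate block 5697 genes changed, 3 members rose and 3 fell. The mean of log2 values and x sets treated alike were alternatives chosen after seeing the data. In each, 6 of 17 tested members passed, beside 41.0% of all genes. Causes were not tested, and signals near the filter limit what can be seen for 17 of the 33 members.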
